A study of Caenorhabditis elegans with 4 samples.

Results

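COH-3 peaks on chromosome II of Caenorhabditis elegans are described here. The members are the 1587 intervals of chromosome II in the peak list that the authors deposited for the whole series, of 9643 intervals in all and 9642 on the 6 nuclear chromosomes. Within the list they were taken by chromosome name alone, with no limit on score or width. The chromosome itself was chosen with earlier results of these data known. The series has 4 libraries from hermaphrodite worms of the strain fem-2(b245), genotype fem-2(b245)III, kept at 20 degrees Celsius, and every group carries this mutation. The groups are 2 COH-3 ChIP libraries (replicates 1 and 2, rabbit polyclonal antibody SDQ3948) and 2 input DNA libraries, whose values were not used here. The labels call the worms young adults that contain a germline, and the growth protocol calls them gravid. The chromatin was that of whole frozen worms fixed with EGS and formaldehyde, so that germline and body cells were mixed. The labels do not say whether the replicates were separate cultures, and the spread between them may be technical.

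COH-3 belongs to the kleisins, cohesin subunits that bridge the other parts of the ring and so hold DNA within it. With its near copy COH-4 it serves in the meiotic germline, beside the kleisin REC-8, in building the chromosome axis on which the synaptonemal complex assembles and crossovers form. C. elegans chromosomes are holocentric, so there is no single centromere around which cohesin could gather. Autosomes have a gene-dense centre where crossovers are rare and repeat-rich arms where most crossovers occur, and the pairing centre of chromosome II, a zone bound by the zinc finger protein ZIM-1, lies toward its right end.

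Chromosome II peaks were narrow and of low score for the most part, with a small number of wide and strong ones. Widths ran from 146 to 6437 bp, with a median of 306 bp (exact 95% interval 296 to 315, counting error over peaks only) and a middle 50% from 208 to 484.5 bp. Of the 1587 peaks, 350 (22.1%) were narrower than 200 bp, 74 were from 1000 to below 2000 bp and 28 (1.76%) reached 2000 bp. The authors' score for the whole-series list, whose kind is not stated and which serves here only to rank peaks within a list, ran from 1.39 to 156.33 with a median of 6.38. Wider peaks scored higher, with a median score of 4.0 below 200 bp and 36.65 at 2000 bp or more, and Spearman's rho between width and score was 0.623 across the 1587 peaks, which share libraries and a caller. The members covered 715 kb, or 4.68% of the chromosome. In coverage chromosome II stood at rank 3 of the 6 chromosomes, whose other values ran from 2.34% to 6.57%, and the median widths of the other 5 chromosomes ran from 268 to 308 bp.

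The spacing of the peaks was uneven. The distance from the end of a peak to the start of the next had a median of 2378.5 bp (2018 to 2717) and a mean of 9180 bp, with a coefficient of variation of 1.78. In the other 5 chromosomes this coefficient ran from 1.41 to 1.77. Many peaks sat almost against a neighbour: 112 of the 1586 distances (7.06%) were of 100 bp or less, and 47.3% were of 2000 bp or less. At the other extreme 57 distances (3.59%) exceeded 50000 bp. Joining peaks less than 500 bp apart left 1159 stretches, of which 877 were single peaks and the widest, at II 10541762 to 10554329, was 12568 bp long. The score of a peak carried little information about the next, with a Spearman's rho of 0.039 over 1586 neighbouring pairs.

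Peaks were densest in the centre of chromosome II in the whole-series list, and sparsest in the left arm. The left arm (up to 4.88 Mb) held 255 peaks, or 52.3 per Mb, the centre 1011, or 142 per Mb, and the right arm (from 12.02 Mb) 321, or 98.5 per Mb. Thus the centre had 2.0 times the density of both arms combined (1.80 to 2.22), and the right arm 1.88 times that of the left (1.59 to 2.23). Both ratios carry counting intervals only, since the peaks of 1 chromosome are not replicates. Coverage followed the same order, at 2.24%, 6.44% and 4.46%. The arms and the centre differed less in the peaks themselves: median widths were 295, 316 and 278 bp and median scores 7.02, 6.28 and 6.38 from left to right. The median distance between neighbours was 7063.5 bp in the left arm, 1853 bp in the centre and 2720.5 bp in the right arm.

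The 2 ChIP replicates placed their peaks differently along the chromosome. Replicate 1 had 542 peaks on chromosome II, at 11.3 per Mb in the left arm, 57.1 in the centre and 24.2 in the right arm. Replicate 2 had 678, at 39.8, 44.0 and 52.2 per Mb. The centre of replicate 1 therefore had 3.47 times the density of its arms (2.85 to 4.25), while in replicate 2 the ratio was 0.983 (0.843 to 1.15). The 2 intervals do not overlap, and the excess of the centre was present in 1 of the 2 libraries. The whole-series list stood between them but nearer to replicate 1 in its profile: over the 30 full windows of 500 kb, its peak count had a Spearman's rho of 0.935 with that of replicate 1 and 0.356 with that of replicate 2, and the replicates had 0.227 with each other. How the libraries were weighed in the whole-series list is not stated. The excess of the right arm over the left had the same direction in both libraries, at 2.15 (1.51 to 3.09) in replicate 1 and 1.31 (1.06 to 1.62) in replicate 2.

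**Figure D1:**
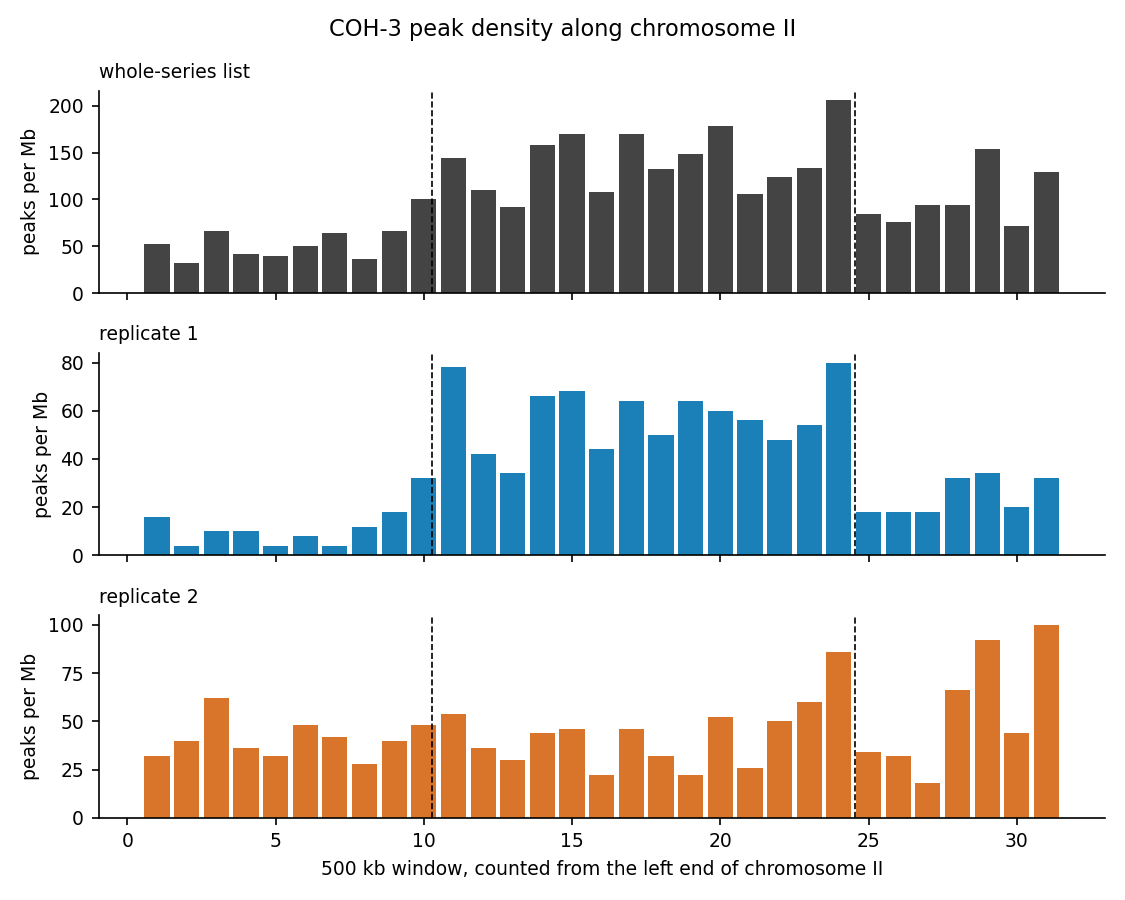
Peaks per Mb (y axis) in 31 windows of 500 kb from the left end of chromosome II (x axis, the last window is 279.3 kb), for the whole-series list and the 2 ChIP replicates. Dashed lines mark the ends of the arms. Replicate 1 stands high between the lines, at 34 to 80 peaks per Mb in windows 11 to 24, and replicate 2 has its highest values, 92.0 and 100 per Mb, in windows 29 and 31.

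Window by window, whole-series counts ran from 16 to 103 with a median of 48.5 over the 30 full windows. The densest window was at II 11500001 to 12000000, just inside the right border of the centre, with 103 whole-series peaks, 40 of replicate 1 and 43 of replicate 2. It was the densest window of replicate 1 too, and in replicate 2 it was exceeded by the window at II 14000001 to 14500000, which had 46. The sparsest was at II 500001 to 1000000, with 16 whole-series peaks. There replicate 1 had 2 peaks and replicate 2 had 20, more than the whole-series list itself. From II 13000001 to 13500000 the replicates had 9 peaks each and the whole-series list 47, of which 32 overlapped no replicate peak.

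The tilt toward the right end was compared with the other chromosomes by equal parts, since arm borders were at hand for chromosome II alone. The rightmost 33.3% of chromosome II held 587 whole-series peaks and the leftmost 290, a ratio of 2.02 (1.76 to 2.34), and in the other 5 chromosomes the ratio ran from 0.756 on I to 1.29 on III. In replicate 1 the values were 188 and 66 peaks, a ratio of 2.85 (2.14 to 3.83) against 0.665 to 1.31 elsewhere. In replicate 2 they were 278 and 214, a ratio of 1.30 (1.08 to 1.56), which overlapped that of chromosome III, 1.28 (1.07 to 1.53). Chromosome II therefore ranked first of 6 in each list, by a wide margin in replicate 1 and by less than counting error in replicate 2. With 1 chromosome against 5, no permutation over chromosomes can give a one-sided p under 0.167, and no test was made. In the density of the middle part against the outer parts chromosome II was not apart: the ratio was 1.62 in the whole-series list, against 1.01 to 1.73 elsewhere, and 2.27 in replicate 1, against 1.17 to 2.26. In replicate 2 it was 0.756 on chromosome II (0.635 to 0.897), below the 0.969 to 1.09 of the other 4 autosomes and above the 0.502 of X, though its interval overlapped those of I (0.871 to 1.16), V (0.820 to 1.14) and X (0.382 to 0.652).

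**Figure D2:**
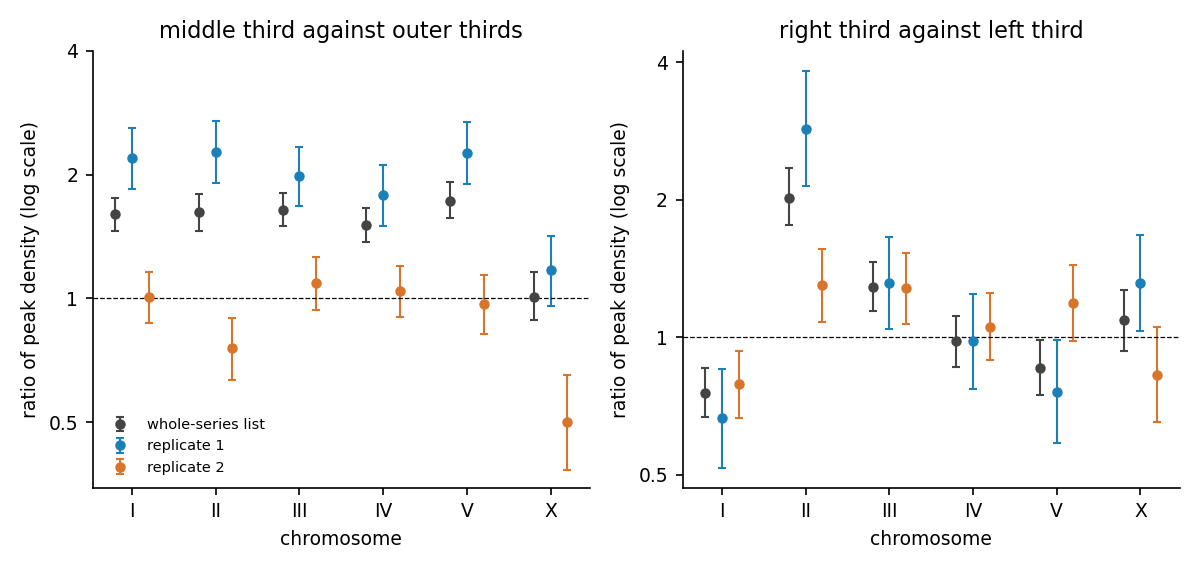
Ratio of peak density (y axis, log scale) between equal parts of each chromosome (x axis), with points for the 3 lists and bars for exact 95% counting intervals. On chromosome II the right part exceeds the left in all 3 lists, at 2.02, 2.85 and 1.30, while the middle part exceeds the outer parts in the whole-series list and replicate 1 and lies below them in replicate 2.

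Support of the chromosome II peaks in the single libraries was close to that of the whole genome. A replicate 1 peak was overlapped by at least 1 bp in 551 of 1587 cases (34.7%, 32.4 to 37.1), against 34.3% over all 6 chromosomes, and a replicate 2 peak in 575 cases (36.2%, 33.9 to 38.7), against 35.3%. Both replicates had a peak at 172 members (10.8%, 9.35 to 12.5), against 10.6% in all. At 379 members (23.9%, 21.8 to 26.1) replicate 1 alone had a peak, at 403 (25.4%, 23.3 to 27.6) replicate 2 alone, and at 633 (39.9%, 37.5 to 42.3) neither, against 40.9% in all. On the other 5 chromosomes 23.8% had replicate 1 alone and 24.6% replicate 2 alone. All of these background shares lie within the intervals of the chromosome II shares. Where a replicate peak overlapped a member, the median distance between midpoints was 51.5 bp in replicate 1 and 48.5 bp in replicate 2. The required overlap itself limits this distance, so it does not measure agreement.

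Members supported by both libraries were wider and stronger than the rest. Their median width was 645 bp and median score 26.68, against 372 bp and 8.15 with replicate 1 alone, 339 bp and 8.59 with replicate 2 alone, and 215 bp and 4.38 with neither. By score class, no peak of the lowest 40% was in both lists, and 102 of the 158 in the highest class were (64.6%). The share in neither went from 71.7% in the lowest class to 0.633%, or 1 peak, in the highest. Matching values by support class or score class for the other chromosomes are not given here. By width, none of the 350 peaks under 200 bp and 17 of the 28 peaks of 2000 bp or more (60.7%) were in both lists. On the other chromosomes 47.5% of the 162 peaks of that width were. From 1000 to below 2000 bp the order was the reverse, with 39.2% of 74 peaks on chromosome II and 46.9% of 439 elsewhere. Wide members span more sequence, and the part of width in these shares was not tested. The whole-series list and the replicate lists belong to the same series, so score and support are not independent measures. A rise of support with score is therefore no separate evidence for the strong members.

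**Figure D3:**
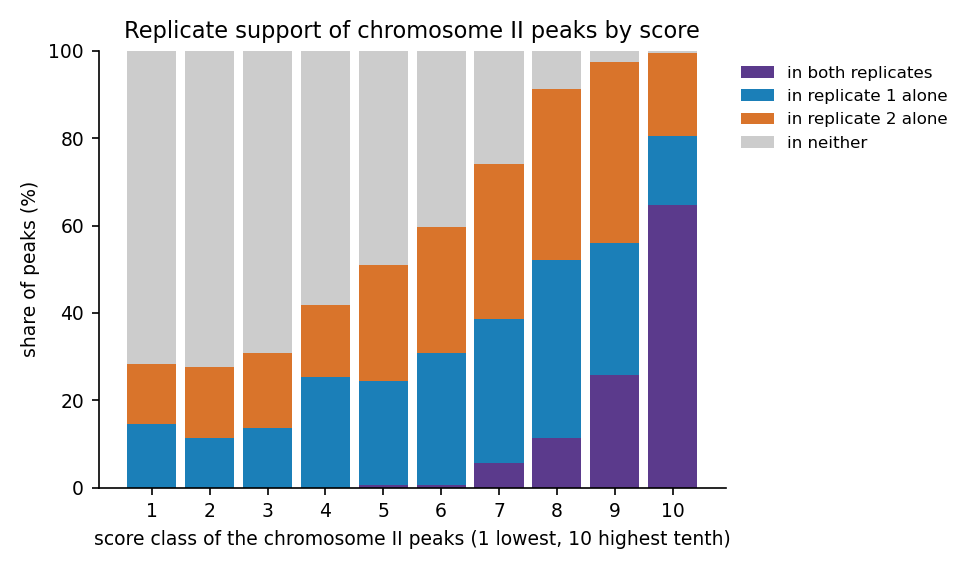
Share of chromosome II peaks (y axis, percent) with a peak in both replicates, in 1 of them or in neither, in 10 classes of whole-series score (x axis, 158 or 159 peaks each). The share in both is 0 in classes 1 to 4 and reaches 64.6% in class 10, while the share in neither falls from 71.7% to 0.633%.

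The kind of support varied along the chromosome more than its amount. In the left arm 36 members (14.1%, 10.1 to 19.0) had a peak in replicate 1 alone and 121 (47.5%, 41.2 to 53.8) in replicate 2 alone. In the centre the order was the opposite, at 299 (29.6%, 26.8 to 32.5) and 172 (17.0%, 14.7 to 19.5). The right arm had the order of the left, at 44 (13.7%) and 110 (34.3%, 29.1 to 39.7), with a smaller share in replicate 2 alone. Support in both replicates was 8.63%, 11.9% and 9.35% from left to right, with intervals that overlap. Members in neither list made up 29.8% of the left arm (24.3 to 35.8), 41.5% of the centre and 42.7% of the right arm. Among the 172 members found in both libraries, the centre had 2.63 times the density of the arms (1.88 to 3.72) and the right arm 2.04 times that of the left (1.14 to 3.71). Each of these members has a replicate 1 peak, so their centre ratio is not independent of the 3.47 of replicate 1. Regional support shares of the other chromosomes are not given here. In peak density by equal parts, every other chromosome also had a higher middle-to-outer ratio in replicate 1 than in replicate 2. Autosomes other than II had at least 1.78 (IV) in replicate 1, whereas replicate 2 gave at most 1.09 (III). On X the ratios were 1.17 and 0.502. This contrast in density between the libraries was thus not particular to chromosome II.

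The 20 strongest members by whole-series score, from 63.98 to 156.33, were spread over the chromosome, with 4 in the left arm, 11 in the centre and 5 in the right arm. Of these, 17 had a peak in both replicates, 1 in replicate 1 alone and 2 in replicate 2 alone. The strongest, at II 9631669 to 9633176 with a whole-series score of 156.33, scored 62.65 in replicate 1 and 3100 in replicate 2. These scores lay at percentiles 13.2 and 98.2 of the replicates' own lists over all chromosomes. The member at rank 5, II 11149342 to 11153029, scored 3100 in replicate 1 and had no peak in replicate 2. Conversely, ranks 10 and 14, II 8288314 to 8292754 and II 14337448 to 14339221, scored 3100 in replicate 2 and had no peak in replicate 1. A high whole-series score thus occurred also where 1 library had a very strong peak and the other a weak peak or none.

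Others were strong in both. Rank 6, a narrow peak of 400 bp at II 14561577 to 14561976, scored 112.06 in the whole-series list, 299.84 in replicate 1 (percentile 80.8) and 919.67 in replicate 2 (93.7). Rank 7, at II 2378360 to 2379086, scored 1982.06 (97.6) and 329.65 (80.3) in the replicates. Rank 11, 417 bp wide at II 5844618 to 5845034, scored 355.51 and 385.74, at percentiles 84.4 and 83.2. Rank 12, at II 4047836 to 4048386, scored 441.89 and 364.78, at percentiles 87.7 and 82.2. Rank 18, at II 8933350 to 8934208, scored 305.97 and 573.95, at percentiles 81.3 and 89.0. In these 5 members, as in ranks 2 to 4, every replicate percentile was 80.3 or more.

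At the other end of agreement were rank 8, II 8459598 to 8460513, with 51.71 in replicate 1 (percentile 1.9) and 3100 in replicate 2, whose peak is the wider and also meets a replicate 1 peak of 190.62 (69.1), and rank 9, II 6346295 to 6349008, with 3100 in replicate 1 and 75.31 in replicate 2 (percentile 24.8). Rank 20, at II 10548244 to 10549668, was likewise at 3100 in replicate 1 and 74.91 in replicate 2. The remaining ranks, 13, 15, 16, 17 and 19, had the higher percentile in replicate 2, from 90.6 to 95.7, and from 32.1 to 72.0 in replicate 1.

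**Figure D4:**
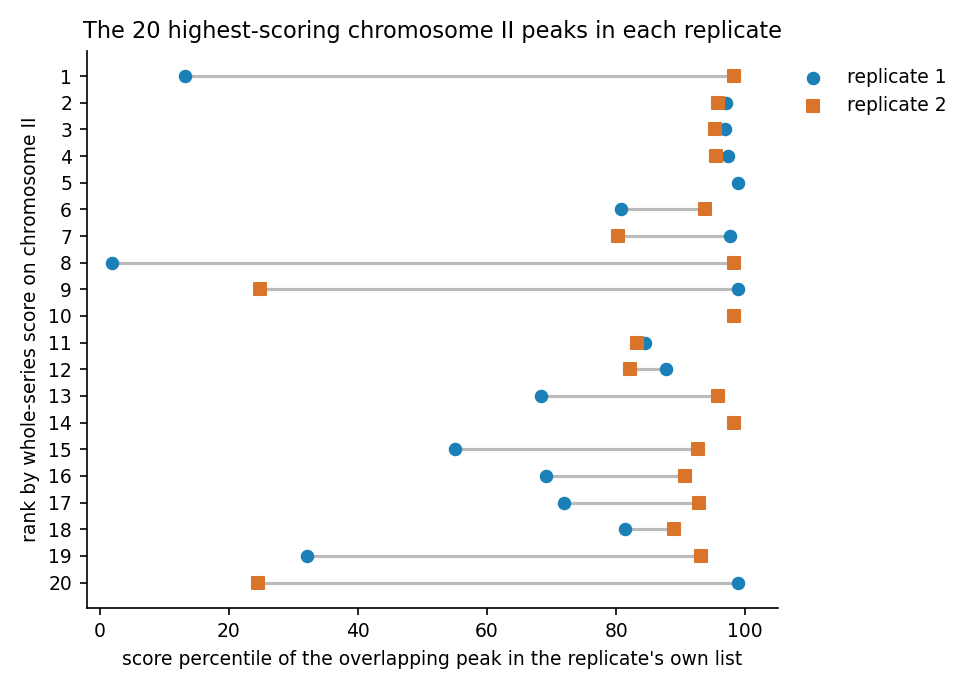
Score percentile of the overlapping peak in each replicate's own list (x axis) for the 20 chromosome II peaks with the highest whole-series score (y axis, rank), with a grey line between the replicates where both have a peak. Ranks 2 to 4 have both points above 95, and ranks 1, 8, 9 and 20 have 1 point above 98 and the other below 25.

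Ranks 2, 3 and 4 are next to each other in the right arm and were strong in both libraries. They lie at II 13824640 to 13827924 (score 137.96), II 13819065 to 13824028 (137.45) and II 13817554 to 13818994 (133.15), separated by 611 and 70 bp, and fill 93.4% of a 10.4 kb stretch. Each replicate had 6 peaks within it, and these matched in 6 pairs, with midpoints 34.5 to 272.5 bp apart. In replicate 1 the 6 scores ran from 1131.01 to 1693.87 and in replicate 2 from 421.29 to 1334.48. Midpoints of neighbouring replicate 1 peaks were 1426 to 2370 bp apart. Thus all 12 replicate peaks of the stretch have a counterpart. The stretch is part of a local cluster of 5 peaks that runs on to II 13830094. That cluster has 1 member in replicate 2 alone, and it holds 7 replicate 1 peaks and 8 replicate 2 peaks.

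High scores in both libraries were also counted over all members. Of the 172 members with a peak in each, 28 reached percentile 90 in replicate 1, 34 in replicate 2 and 9 in both, and Spearman's rho between the 2 replicate scores was 0.13. The 9 were picked after their values were seen. No matching counts for the other chromosomes are given here, so these numbers cannot be called low or high. Of the 9, 6 are in the right arm, 2 in the centre and 1 in the left arm, and 3 of the 6 are the adjacent peaks of the stretch at ranks 2 to 4. The 172 members themselves divide into 30 in the right arm, 120 in the centre and 22 in the left arm. With percentile 80 as the limit there were 21, with 8 in the right arm, 8 in the centre and 5 in the left arm, and with percentile 50 there were 76, with 15, 50 and 11. Besides the 3 above, the right arm held II 12052836 to 12055895 (997.6 in replicate 1, 1030.76 in replicate 2), II 12725169 to 12727397 (754.88 and 1968.1) and II 13520922 to 13522928 (836.15 and 2120.95). In the centre were II 5664542 to 5667186 (868.98 and 1392.15) and II 10840878 to 10842294 (621.69 and 883.75), and in the left arm II 211449 to 213273 (569.09 and 2242.54). By whole-series score the 9 stood between ranks 2 and 128 of the 1587 members.

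The strongest peaks of each library on chromosome II stood lower or were absent in the other. The limit of 3100 was set after the scores were seen, since 5 peaks of replicate 1 and 6 of replicate 2 share that value. Replicate 1 had 6 peaks at or above it, with widths from 3750 to 7823 bp. A replicate 2 peak overlapped 5 of them, at scores from 56.88 to 216.93, percentiles 10.2 to 69.5. The highest, II 6888068 to 6892481, scored 3164.39 in replicate 1 and 56.88 in replicate 2. Replicate 2 had 7 such peaks, from 1373 to 5034 bp wide, and 3 of them overlapped a replicate 1 peak, at scores from 62.65 to 190.62, percentiles 13.2 to 69.1. The highest of replicate 2, II 4554190 to 4555562 with 3167.96, had no counterpart in replicate 1, and neither had II 12843682 to 12846145, at 3100. Thus none of these 13 peaks met a peak above percentile 69.5 of the other library. They were picked for a high score in 1 library, and matching counts for the other chromosomes are not given here.

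Of the 5 widest members, most lay at replicate peaks of 3100 counted above, so they are not further cases. They do not stand for all wide members. Of the 28 members of 2000 bp or more, 17 (60.7%) were in both lists. The widest, 6437 bp at II 10541762 to 10548198, lies under a 7823 bp peak of replicate 1 with a score of 3100 and overlapped no replicate 2 peak. The same replicate 1 peak spans 2 members, the other being rank 20, where it meets a replicate 2 peak of 74.91. The next, 5610 bp at II 1148064 to 1153673, had a replicate 1 peak of 5472 bp at 3100 and a replicate 2 peak of 301 bp at 84.01. The member at II 13428875 to 13434266, 5392 bp, had the reverse, with 326 bp at 79.33 in replicate 1 and 5034 bp at 3100 in replicate 2. The member at II 8743168 to 8748185, 5018 bp, scored 3100 in replicate 1 and 216.93 in replicate 2. Of the 5 widest, only the 4964 bp member of the right-arm stretch was above percentile 95 in both libraries, at 96.9 and 95.3.

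Local clusters, taken as runs of at least 4 peaks with neighbours at most 2000 bp apart, held 515 of the 1587 members (32.5%) in 89 runs. They were most frequent in the centre, with 67 clusters or 9.38 per Mb, against 16 or 4.91 per Mb in the right arm and 6 or 1.23 per Mb in the left. The median cluster had 5 peaks and spanned 4860 bp, and 37 clusters had 6 or more peaks. By the share of its peaks in clusters chromosome II was at rank 3 of 6, the other values running from 22.6% to 35.5%. Clustered peaks were not stronger: their median score was 5.97, against 6.64 outside clusters, and 10.7% (8.15 to 13.7) against 10.9% (9.11 to 12.9) were in both replicates. They had a peak in replicate 1 alone in 37.9% of cases (33.7 to 42.2), against 17.2% (15.0 to 19.6) outside clusters, and in neither in 30.1% against 44.6%. Matching shares for clustered peaks of the other chromosomes are not given here.

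Of the 5 largest clusters, 4 had nearly all of their members in a single library. The largest, 23 peaks over 16328 bp at II 9808158 to 9824485, overlapped replicate 2 peaks with all 23 members and contained 17 replicate 2 peaks and no replicate 1 peak. Its scores were low, from 3.03 to 7.37. The next, 13 peaks at II 8067819 to 8081042, had 10 members in neither list. The cluster at II 10541762 to 10560040, 12 peaks over 18279 bp, had 11 members in replicate 1 and 1 in replicate 2. Only 6 replicate 1 peaks lay in it. The cluster at II 3159730 to 3168487 in the left arm had all 10 members in replicate 2 and none in replicate 1. The cluster at II 5329663 to 5341202, the longest of 5 that tie at 9 peaks, had 8 in replicate 1 and none in replicate 2. The other 4 with 9 peaks varied: at II 11756994 to 11761773 all 9 members were in replicate 2 and 1 in replicate 1, at II 9930879 to 9940676 5 were in replicate 1 and 3 in neither, at II 14598251 to 14606248 4 and 4, and at II 13091382 to 13098318 7 were in neither. These 4 were added after their values were seen.

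Over all 89 clusters, at least 50% of the members were in replicate 1 in 55, in replicate 2 in 22 and in each of them in 9. Of the 37 clusters with 6 or more peaks these numbers were 24, 8 and 2. In the centre they were 48, 12 and 7 of 67 clusters, in the right arm 6, 6 and 2 of 16, and in the left arm 1, 4 and 0 of 6. These shares were computed after the clusters had been seen. No replicate 1 peak lay in 16 clusters and no replicate 2 peak in 25. Matching counts for clusters on the other chromosomes are not given here. Whether these cluster counts are particular to chromosome II was therefore not tested. In the centre, 169 clustered members (43.4%, 38.5 to 48.5) had a peak in replicate 1 alone and 58 (14.9%, 11.5 to 18.8) in replicate 2 alone. Outside clusters these numbers were 130 (20.9%, 17.8 to 24.3) and 114 (18.3%, 15.4 to 21.6), with intervals that overlap. By number of members, most of the surplus of replicate 1 alone over replicate 2 alone in the centre thus lay within clusters. These members are not separate cases, since 1 replicate peak can overlap several of them. On the whole chromosome 50 replicate 1 peaks and 30 replicate 2 peaks did so, and their part in this surplus was not tested. In the left arm replicate 2 alone had the larger number both within clusters, at 24 against 6, and outside them, at 97 against 30.

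**Figure D5:**
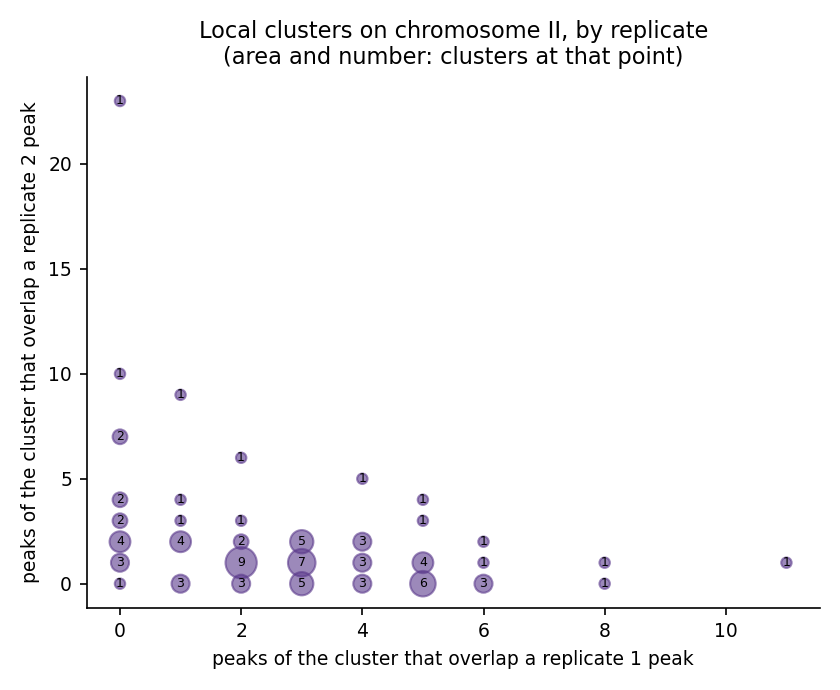
Number of peaks in each of the 89 local clusters of chromosome II that overlap a replicate 1 peak (x axis) and a replicate 2 peak (y axis). The area of a point and the number in it give how many clusters share that position. Several large clusters lie along the axes, such as the cluster of 23 at 0 and 23 and the cluster of 12 at 11 and 1.

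The longest stretches without a whole-series peak were mostly in the left arm. The longest was 157289 bp at II 699086 to 856374, followed by 130587 bp at II 2090930 to 2221516, 124398 bp at II 3662189 to 3786586, 116958 bp at II 3817780 to 3934737 and, in the right arm, 114488 bp at II 12344987 to 12459474. No replicate 1 peak lay in any of the 5, and replicate 2 had 1 peak in each of the first 2. The stretches of 124398 and 116958 bp lie close to each other, parted by a short stretch with peaks.

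The outermost members differed in support. The first, II 1 to 434, ranked 15 with a score of 68.2, and scored 131.6 in replicate 1 (percentile 55.0) and 810.23 in replicate 2 (92.7). The last, II 15279018 to 15279342, whose end also sets the chromosome length used here, ranked 68 with 35.88 and overlapped no peak of either replicate. It was the strongest of the 633 members without replicate support. The next 4 of these, at II 5293308 to 5293544 (15.39), II 5772855 to 5773076 (14.93), II 1320387 to 1320785 (14.77) and II 8602294 to 8602583 (14.77), were from rank 286 down and 222 to 399 bp wide.

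Nearly all replicate 1 peaks of chromosome II were in the whole-series list, and fewer of replicate 2. Of the 542 replicate 1 peaks 532 (98.2%) overlapped a member, against 97.7% on the other chromosomes, and of the 678 replicate 2 peaks 596 (87.9%), against 84.4%. The 10 missing replicate 1 peaks had a highest score of 89.98, at II 6340994 to 6341446. The next were 75.4 at II 11730139 to 11730516 and 72.59 at II 7887281 to 7887600. The 82 missing replicate 2 peaks had a median score of 62.39, against 145.98 for those included, and 40 of them were in the left arm, 20 in the centre and 22 in the right arm. Their highest scores were 157.67 at II 255718 to 256091, 131.8 at II 5075572 to 5076020 and 130.22 at II 3942364 to 3942796, the first and the last in the left arm.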

How the data were processed

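Peak positions and the peak score were used as deposited by the authors in 3 lists: 1 for each ChIP replicate, from MACS, and 1 for the whole series, from MACS v2 (source fields of the files). Coordinates use WormBase WS220, per the file headers. BWA and ce10 are named in the submitters' processing notes. The kind of score, the use of the inputs and the way replicates entered the whole-series list are not given in the sources used here. Read depth is unknown, and a missing peak is not evidence of missing binding.

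Peaks were placed by midpoint, and overlap meant at least 1 shared bp. Chromosome II length, 15279342 bp, is the end of its last peak in any list. A score percentile is the share of the list's nuclear peaks with a lower score; where several replicate peaks overlapped a member, the highest score was taken. Intervals are exact binomial (95%) and cover counting error only. No test was made: the 2 ChIP libraries form 1 group, with no list from the inputs to set against it here, and 1 chromosome against 5 cannot reach a p under 0.167. Regions were named by rule: the 20 highest scores, 5 widest peaks, 5 largest clusters, 5 longest gaps, 5 strongest unsupported peaks, the 5 highest and 3 highest unmatched peaks of each replicate, the extreme 500 kb windows and the end peaks. The members, borders and rules were chosen with earlier results of these data known. No genome or gene annotation of this build was used here, so genes and sequences are not given. Python 3.11.15, numpy 2.4.6, pandas 2.3.3, scipy 1.17.1 and matplotlib 3.10.9 were used. Overlaps were checked with bedtools 2.31.1, and the functions were tested on simulated peaks.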

Additional observations from a re-analysis of the deposited data

How the results depend on the processing

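Of 52 alternatives over 10 results, 8 stayed within the counting interval of the reported value, or within 1.5 times a count, and 43 moved beyond it. The excess of the centre over the arms, 2.0, turned to 0.983 in the replicate 2 list and was 3.47 in the replicate 1 list, 1.78 with peaks within 500 bp merged and 1.62 with equal parts. The excess of the right arm kept its direction in 6 of 6 settings, from 1.31 in replicate 2 to 2.15 in replicate 1. Peak density, 104 per Mb, was 53.2 in the upper 50% by score and 35.5 and 44.4 in the replicates. The shares in both, at least 1 and neither (10.8%, 60.1%, 39.9%) became 5.92%, 47.3% and 52.7% with 50% reciprocal overlap, 15.1%, 68.9% and 31.1% within 500 bp, 21.0%, 83.4% and 16.6% for members in the upper 50% by score, and 4.79%, 36.0% and 64.0% with replicate peaks of the upper 50%. With 1 replicate left out, 34.7% to 36.2% had support and 63.8% to 65.3% had none. Clusters numbered 55 (19.7% of peaks) with a 1000 bp limit, 136 (54.3%) with 5000 bp, 162 (46.3%) from 3 peaks on, 22 (11.9%) in the upper 50%, and 17 (16.7%) to 25 (23.4%) in the replicates. The median distance of 2378.5 bp was 7209 in the upper 50%, 5360.5 after merging, and 4747 to 8292 in the replicates, and the median width of 306 bp was 416, 356 and 329.5 to 507. By construction, fewer peaks lower density and leave fewer to join into clusters. A stricter overlap rule or fewer replicate peaks can only lower the shares with support, and a looser rule can only raise them. A shorter cluster limit can only lower the share of peaks in clusters, and a longer limit or fewer required peaks can only raise it. Merging removes the short distances and so raises their median. The cause of the other changes was not tested. No paired analysis was possible because pairing needs input values, which were not analysed here. Unknown depth, 2 ChIP libraries and ties at 3100 limit these results.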
